A study of Mus musculus with 17 samples.

Results

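This account follows 9 genes through bulk RNA-seq of macrophages sorted from mouse synovium, the membrane that lines joints. They are 8 genes of C-type lectin receptors, namely Mgl2, Clec10a, Mrc1, Cd209f, Clec7a, Clec4n, Clec4a2 and Clec12a, and Retnla, which encodes a secreted protein of the resistin family. The genes were taken by symbol from the deposited table of 22859 genes, and 9 of 9 passed the filter on low counts that left 15272 genes for testing. All mice were Fcgr2b-KO, controls included, so that every group lacked the gene of FcγRIIB, an Fc receptor with an inhibitory function. The labels do not say whether the knockout was limited to a cell type, and the methods list Fcgr2b-/- mice without naming one. According to the methods mice of both sexes were used as adults.

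Mice either served as controls, labeled Healthy, or had received immune complexes (IC), antibody bound to its antigen, through a vein 8 h before the synovium was digested. Per the methods the antigen was ovalbumin and the antibody a rabbit antiserum against it. Synovial macrophages were sorted on surface protein into LYVE1+CX3CR1+ (labeled Lyve1), MHCII+CD11c- (labeled IAIE) and MHCII+CD11c+ (labeled CD11c) cells, and none of the 9 genes encodes a protein of these gates. Of the 6 groups 5 had 3 libraries each, and IC-treated MHCII+CD11c+ macrophages had 2. The labels do not tie libraries to animals, so p-values measure the spread between these libraries, which may be technical in part. Fcgr2b itself was counted at 69.3 to 248 CPM (counts per 1000000) over the libraries, which does not check the knockout, because the sources used here do not say which part of the gene is deleted.

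C-type lectin receptors carry a fold that in many members binds sugars with the help of calcium, and macrophages use them to take up glycoproteins, to sense microbes and dying cells, and to set activation thresholds. Mgl2 and Clec10a encode the galactose-type lectins CD301b and CD301a, which bind galactose and N-acetylgalactosamine. Mrc1 encodes the mannose receptor CD206, an endocytic receptor, and Cd209f one of the mouse relatives of DC-SIGN. Clec7a (dectin-1, a receptor for fungal beta-glucan) and Clec4n (dectin-2, a receptor for mannans that signals through the FcR gamma chain) activate the kinase SYK. Clec4a2 (DCIR) and Clec12a (MICL) carry inhibitory tyrosine motifs that recruit phosphatases. Retnla (RELM-alpha), Mrc1 and the CD301 genes are known as targets of IL-4 and IL-13 acting through STAT6 in mouse macrophages, and resident tissue macrophages often express them without infection.

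On GRCm38 (GENCODE M21) the genes lie in 6 places on 5 chromosomes. Mgl2 (chr11:70130329-70137550, plus strand) and Clec10a (chr11:70156197-70170834, plus strand) are close together, as are Clec4a2 (chr6:123106428-123143999, plus strand) and Clec4n (chr6:123229843-123247021, plus strand). Clec12a (chr6:129342691-129365303, plus strand) and Clec7a (chr6:129461591-129472779, minus strand) lie further along the same chromosome. Mrc1 is at chr2:14229392-14332057 (plus strand), Retnla at chr16:48842551-48844461 (plus strand) and Cd209f at chr8:4102787-4105835 (minus strand). None of them shares exon bases with another annotated gene. Of all stretches of 50 bases in the transcripts of a gene, 29.8% in Cd209f also occurred in another gene, which was Cd209g, and 13.1% in Mgl2 did so, mostly in Clec10a. The share was 9.02% in Clec10a, mostly in Mgl2, and 6.83% in Clec4a2, mostly in Clec4a4, and it was at most 0.686% in the other 5 genes. Because the treatment of reads with several alignments is not given in the sources used here, values of Cd209f, and to a lesser degree of Mgl2, Clec10a and Clec4a2, are uncertain by the reads they may share.

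The sequences just before the RefSeq starts of 3 genes are shown, those of Retnla and Mgl2 because both were low in LYVE1+CX3CR1+ macrophages under either treatment, and that of Clec4a2 because it differed between the subsets in another order. They come from RefSeq (GRCm38.p6), which gave 250 bases before the start of 7 of the 9 genes, and bases that GENCODE places in an exon were left off. The RefSeq start of Clec4a2 lies within the gene as GENCODE bounds it, since 1 GENCODE transcript begins further upstream, so its window is before an internal start. The windows searched for 4 motifs on both strands were those of 250 bases. Capitals mark matches.
Retnla, chr16:48842359-48842550, plus strand: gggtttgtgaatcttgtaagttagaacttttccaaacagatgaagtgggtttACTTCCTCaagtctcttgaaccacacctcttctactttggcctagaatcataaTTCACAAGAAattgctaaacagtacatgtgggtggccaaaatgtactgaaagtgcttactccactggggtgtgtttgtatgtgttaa
Mgl2, chr11:70130107-70130328, plus strand: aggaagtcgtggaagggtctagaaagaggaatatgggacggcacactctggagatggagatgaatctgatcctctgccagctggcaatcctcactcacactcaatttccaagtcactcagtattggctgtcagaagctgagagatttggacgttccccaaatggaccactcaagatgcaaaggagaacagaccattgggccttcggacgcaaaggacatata
Clec4a2, chr6:123122440-123122621, plus strand: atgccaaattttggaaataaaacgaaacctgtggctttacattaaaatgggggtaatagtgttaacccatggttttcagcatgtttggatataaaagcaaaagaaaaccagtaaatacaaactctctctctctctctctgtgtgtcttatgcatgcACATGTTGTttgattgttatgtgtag

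The Retnla window held the letters of a STAT6 site, TTC and GAA with any 4 bases between, first base 145 bases before the start, and the PU.1 letters GAGGAAGT on the opposite strand, 198 bases before it. Of 32851 RefSeq windows of the same length, 5.85% held the STAT6 letters and 2.44% the PU.1 letters. The Clec4a2 window held the letters of a core of the glucocorticoid receptor site, ACANNNTGT, 94 bases before the start, which 5.84% of windows held, and the letters TTCNNNGAA (7.02% of windows) 42 bases before the start, beyond the printed stretch. The STAT6 letters also occurred in the window of Clec7a, and Clec10a and Clec4n were not searched. None of the 4 motifs was found in the windows of Mgl2, Mrc1, Clec12a and Cd209f, which says only that these letters are not in these windows.

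Libraries held between 2301913 and 7248939 counts, and levels are given as CPM on library sizes scaled by the trimmed mean of M values (TMM). At equal depth between 11547 and 13842 genes had a count in the LYVE1+CX3CR1+ libraries after IC, against 16405 to 17326 in LYVE1+CX3CR1+ controls. MHCII+CD11c+ control replicate 3 was also low, with 13822 genes. The summed level of 7 macrophage markers lay between 7543 and 16125 CPM in all libraries, with 0 of 7 at 0 in any group. The MHCII and CD11c gates of the sort left their mark in RNA, and the LYVE1 gate did so less clearly. The sum of 4 MHCII genes lay between 102 and 156 CPM in the controls of LYVE1+CX3CR1+ macrophages and between 19.8 and 49.2 CPM in their IC libraries, with H2-Eb1 at 0 in all 3 libraries after IC, against 11130 to 34219 CPM in the other libraries. Itgax, the CD11c gene, lay between 275 and 443 CPM in MHCII+CD11c+ libraries and was at most 16.0 CPM elsewhere. The summed level of 7 conventional dendritic cell markers was lowest in LYVE1+CX3CR1+ macrophages, where control libraries had 19.5 to 23.4 CPM and IC libraries 6.61 to 12.0 CPM. MHCII+CD11c- macrophages had 96.0 to 245 CPM under control conditions and 77.1 to 85.6 CPM with IC. MHCII+CD11c+ macrophages had 255 to 650 CPM and 279 to 411 CPM. Of these markers Ccr7 was at 0 in LYVE1+CX3CR1+ controls, and Clec9a, Dpp4 and Ccr7 were at 0 in LYVE1+CX3CR1+ libraries after IC. In bulk samples fewer cells of a type and less RNA per cell cannot be told apart.

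Mgl2 was lower after IC in LYVE1+CX3CR1+ macrophages, and it was the only 1 of 9 members called in that comparison. Its level was 97.3, 94.9 and 130.1 CPM in the 3 control libraries and 17.8, 5.67 and 15.8 CPM in the 3 IC libraries. Every IC library was below every control library, by a margin of several fold. The mean level went from 107 ± 19.6 to 13.1 ± 6.52 CPM (SD, n = 3 each), a log2 fold change of -3.04 ± 0.35 (SE) with an adjusted p of 0.000452. Among all genes tested, 0.963% were called in this comparison, and 0.812% were lower. The call was lost under voom with quality weights (adjusted p = 0.0859) and held under all other alternatives tried.

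In MHCII+CD11c- macrophages Mgl2 stood at 690, 466 and 762 CPM in controls and at 226, 339 and 513 CPM after IC, ranges that overlap. In MHCII+CD11c+ macrophages it stood at 662, 527 and 647 CPM in controls and at 312 and 407 CPM after IC, without overlap. Neither difference passed the test, with log2 fold changes of -0.83 ± 0.31 (adjusted p = 0.337) and -0.77 ± 0.35 (adjusted p = 0.955). The fall in LYVE1+CX3CR1+ macrophages was larger than these by 2.21 ± 0.47 and 2.27 ± 0.49 on the log2 scale, but the interaction tests gave adjusted p-values of 0.198 and 0.135, so the responses were not shown to differ. Under DESeq2 both tests passed (adjusted p = 0.0098 and 0.0173), and the second also passed with a replicate block.

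Control LYVE1+CX3CR1+ macrophages already had the lowest Mgl2 level of the 3 subsets. Beside the background of 1.56% and 15.2% of all genes called in these comparisons, their mean was 16.8% of that in MHCII+CD11c- controls (log2 difference -2.57 ± 0.32, adjusted p = 0.00044) and 17.5% of that in MHCII+CD11c+ controls (-2.51 ± 0.32, adjusted p = 4.55e-05). Mean levels of both MHCII+ subsets were close, at 639 ± 155 and 612 ± 73.8 CPM in controls (n = 3 each). The 95% interval of their log2 difference, MHCII+CD11c+ over MHCII+CD11c-, ran from -0.68 to 0.55 in controls and from -0.69 to 0.69 after IC. After IC the LYVE1+CX3CR1+ mean was 3.64% of the MHCII+CD11c- mean (log2 difference -4.78 ± 0.35, adjusted p = 1.23e-06).

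**Figure D1:**
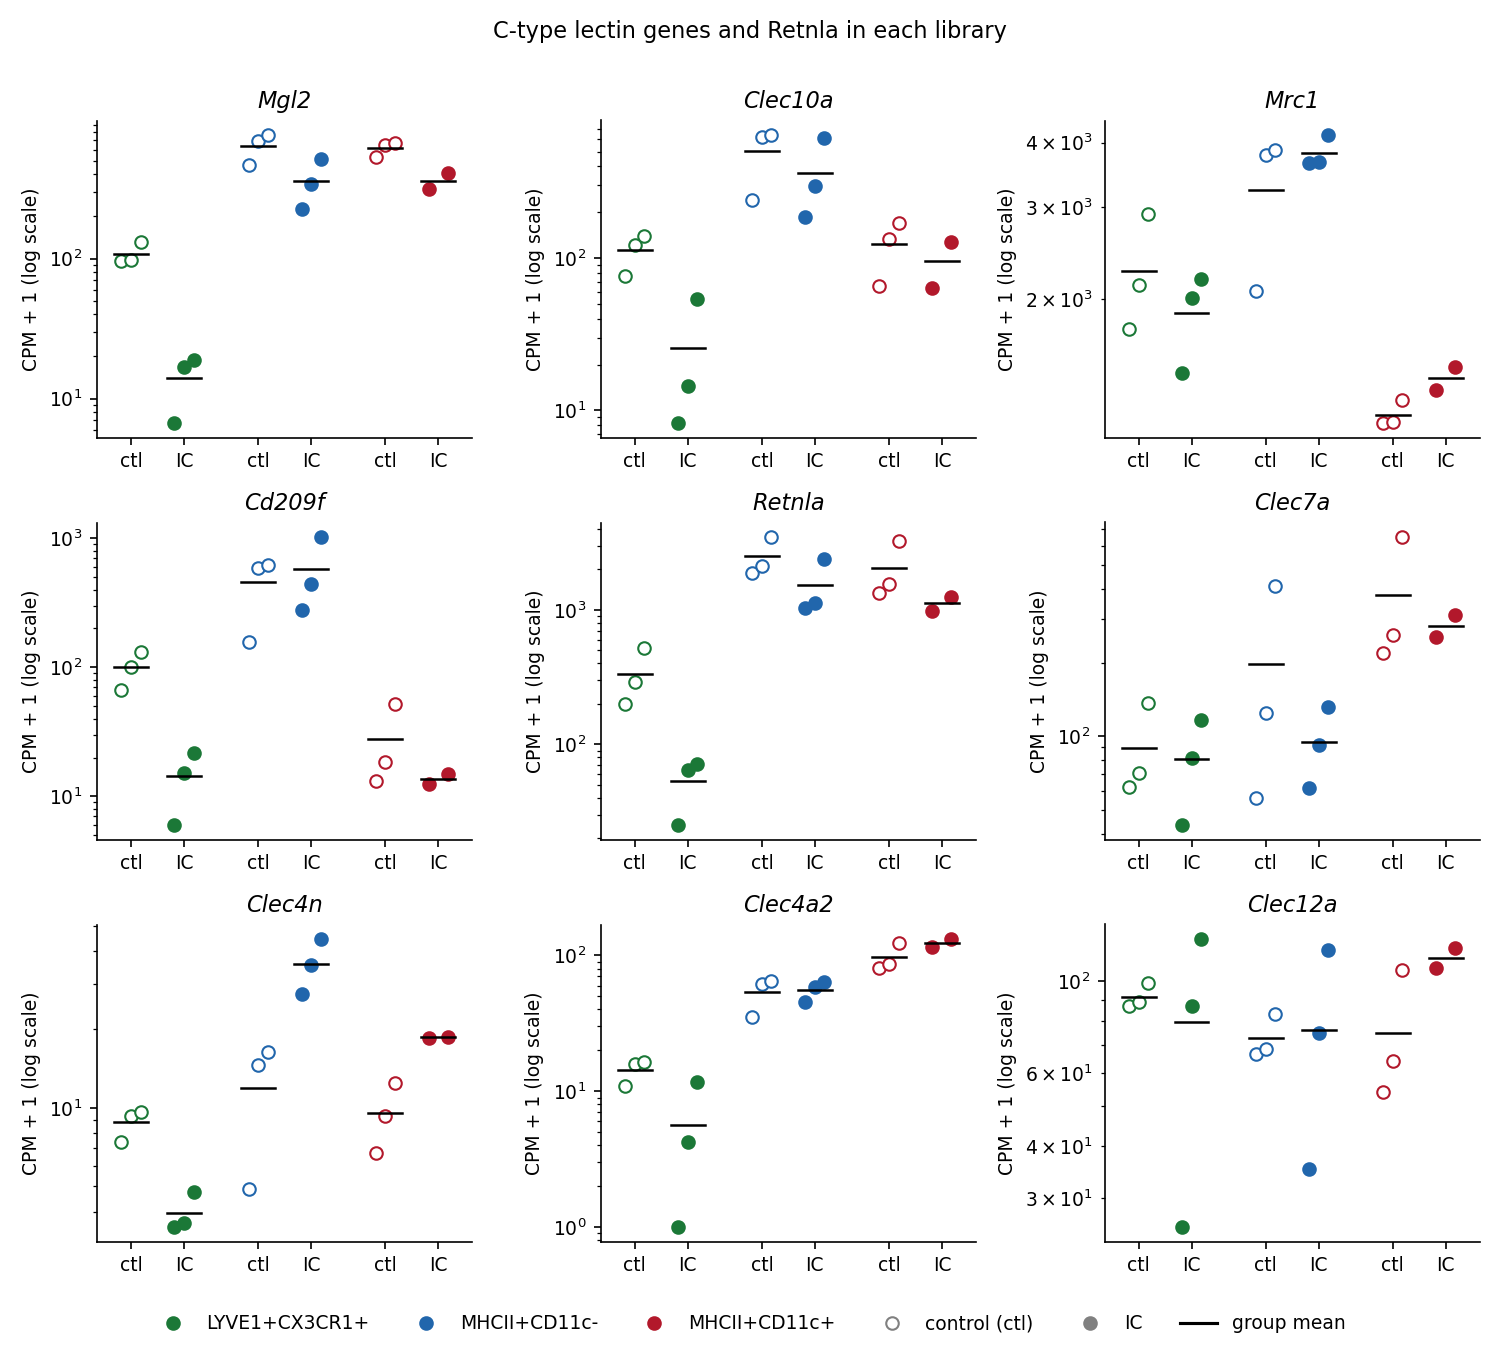
Level of each gene in each of the 17 libraries, as CPM + 1 on a log scale whose range differs between panels. Open points are controls, filled points are IC libraries, colors mark the 3 subsets and lines mark group means. The IC libraries of LYVE1+CX3CR1+ macrophages lie below all of their controls for Mgl2, Clec10a, Cd209f, Retnla and Clec4n, and the IC libraries of both MHCII+ subsets lie above their controls for Clec4n.

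Clec10a, the neighbor of Mgl2, shared its low level in LYVE1+CX3CR1+ macrophages but not its high level in MHCII+CD11c+ macrophages. In controls it was at 121, 74.9 and 139 CPM in LYVE1+CX3CR1+ libraries, at 625, 240.3 and 642 CPM in MHCII+CD11c- libraries, and at 131, 64.8 and 169.8 CPM in MHCII+CD11c+ libraries. The libraries of MHCII+CD11c- macrophages thus lay above all 6 others. The differences did not pass the test in the reported fit (log2 difference -2.17 ± 0.69, adjusted p = 0.233, for LYVE1+CX3CR1+ and -2.05 ± 0.69, adjusted p = 0.112, for MHCII+CD11c+, each over MHCII+CD11c-). They passed under 4 and 6 alternatives, respectively. After IC, Clec10a was at 13.5, 7.24 and 53.1 CPM in LYVE1+CX3CR1+ libraries, all below their controls, with a log2 fold change of -2.22 ± 0.73 that was not called (adjusted p = 0.209) except with surrogate variables (0.0139). At 186, 294 and 608 CPM in MHCII+CD11c- libraries and 62.1 and 127 CPM in MHCII+CD11c+ libraries, the IC levels of both MHCII+ subsets overlapped with those of their controls.

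Retnla had the highest level of the 9 genes per kilobase of exon in 5 of the 6 groups, and its profile over the groups resembled that of Mgl2. It was at 197, 517 and 293 CPM in LYVE1+CX3CR1+ controls and at 70.2, 63.3 and 24.1 CPM after IC. Each IC library lay below each control library. The log2 fold change was -2.67 ± 0.53, and its adjusted p of 0.0505 missed the threshold of 0.05 in the reported fit. Over the alternatives tried the adjusted p ranged from 0.00034 to 0.315, and the gene was called under 3 of them, namely a higher count minimum, DESeq2 and a fit of only the groups compared.

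In controls Retnla was at 2117, 3493 and 1884 CPM in MHCII+CD11c- libraries and at 1332, 3263 and 1567 CPM in MHCII+CD11c+ libraries. Every one of these lay above every LYVE1+CX3CR1+ library. The LYVE1+CX3CR1+ mean was 13.4% of the MHCII+CD11c- mean (log2 difference -2.90 ± 0.52, adjusted p = 0.0229) and 16.3% of the MHCII+CD11c+ mean (-2.61 ± 0.52, adjusted p = 0.00615). The former call was lost without MHCII+CD11c- control replicate 1 (adjusted p = 0.0544) and without LYVE1+CX3CR1+ control replicate 1 or 3 (0.109 and 0.126). Both MHCII+ subsets were close to each other, with a 95% interval of the log2 difference from -1.29 to 0.73. After IC they had 1031, 1124 and 2411 CPM and 1250.3 and 988 CPM, and the change was not called in either (log2 fold changes -0.71 ± 0.51 and -0.88 ± 0.58).

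Cd209f had its highest level in MHCII+CD11c- macrophages. In controls it was at 591, 155 and 620.2 CPM there, at 98.9, 66.2 and 131 CPM in LYVE1+CX3CR1+ libraries and at 17.4, 12.3 and 50.7 CPM in MHCII+CD11c+ libraries. The 3 subsets did not overlap, and LYVE1+CX3CR1+ macrophages were in the middle. The MHCII+CD11c+ mean was 5.88% of the MHCII+CD11c- mean (log2 difference -4.13 ± 0.71, adjusted p = 0.00652), a call lost when only the groups compared were fitted (adjusted p = 0.0516). The differences of LYVE1+CX3CR1+ from MHCII+CD11c- (-2.20 ± 0.68, adjusted p = 0.2198) and from MHCII+CD11c+ controls (1.93 ± 0.71, adjusted p = 0.109) were not called, but were under 2 and 4 of 12 alternatives. Of all genes, 8.66% were called between the MHCII+ subsets in controls and 4.99% were lower in MHCII+CD11c+ macrophages. Of the 9 members 2 were called, Cd209f and Mrc1, both lower in that subset.

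After IC, Cd209f was at 4.97, 20.8 and 14.1 CPM in LYVE1+CX3CR1+ libraries, each below its controls, with a log2 fold change of -2.91 ± 0.75 that was not called (adjusted p = 0.117) except under DESeq2 (0.00787) and with only the groups compared (0.0237). In MHCII+CD11c- libraries the levels of 277, 442 and 1023 CPM overlapped with those of controls. They were 13.8 and 11.5 CPM in MHCII+CD11c+ libraries. Between MHCII+ subsets the log2 difference after IC was -5.51 ± 0.81 (adjusted p = 0.00902), which was lost without either of the 2 MHCII+CD11c+ libraries (adjusted p = 0.112 and 0.200). Its relative Cd209g, with which Cd209f shares sequence, had group means in the same order, 233 ± 136, 35.6 ± 20.8 and 6.47 ± 4.35 CPM in controls of MHCII+CD11c-, LYVE1+CX3CR1+ and MHCII+CD11c+ macrophages (n = 3 each). Reads of the 2 genes may have been split between them.

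Mrc1 was expressed strongly by all 3 subsets, and its change with IC was not called in any of them. In controls it was at 3789, 2067 and 3878 CPM in MHCII+CD11c- libraries, at 2125, 1745 and 2907 CPM in LYVE1+CX3CR1+ libraries and at 1277, 1158 and 1150.1 CPM in MHCII+CD11c+ libraries. The last subset lay below all others. MHCII+CD11c+ macrophages had 36.8% of the MHCII+CD11c- level (log2 difference -1.44 ± 0.21, adjusted p = 9.02e-05), and LYVE1+CX3CR1+ macrophages exceeded MHCII+CD11c+ macrophages by 0.92 ± 0.21 on the log2 scale (adjusted p = 0.00334). The latter call was lost without LYVE1+CX3CR1+ control replicate 3 (adjusted p = 0.0535).

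After IC, Mrc1 stood at 2006, 1440 and 2180 CPM in LYVE1+CX3CR1+ libraries, at 3662, 3656 and 4138 CPM in MHCII+CD11c- libraries and at 1475 and 1334 CPM in MHCII+CD11c+ libraries. Intervals of 95% for the log2 fold change on IC ran from -0.68 to 0.14, from -0.17 to 0.64 and from -0.22 to 0.69 in these 3 subsets. A change beyond 1 log2 unit in either direction was therefore outside the interval in each subset. The difference between the MHCII+ subsets was the same size after IC (-1.44 ± 0.23, adjusted p = 0.000924), and LYVE1+CX3CR1+ macrophages were then below MHCII+CD11c- macrophages, with a log2 difference of -1.03 ± 0.21 (adjusted p = 0.00445) that was not called under voom (0.0885).

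**Figure D2:**
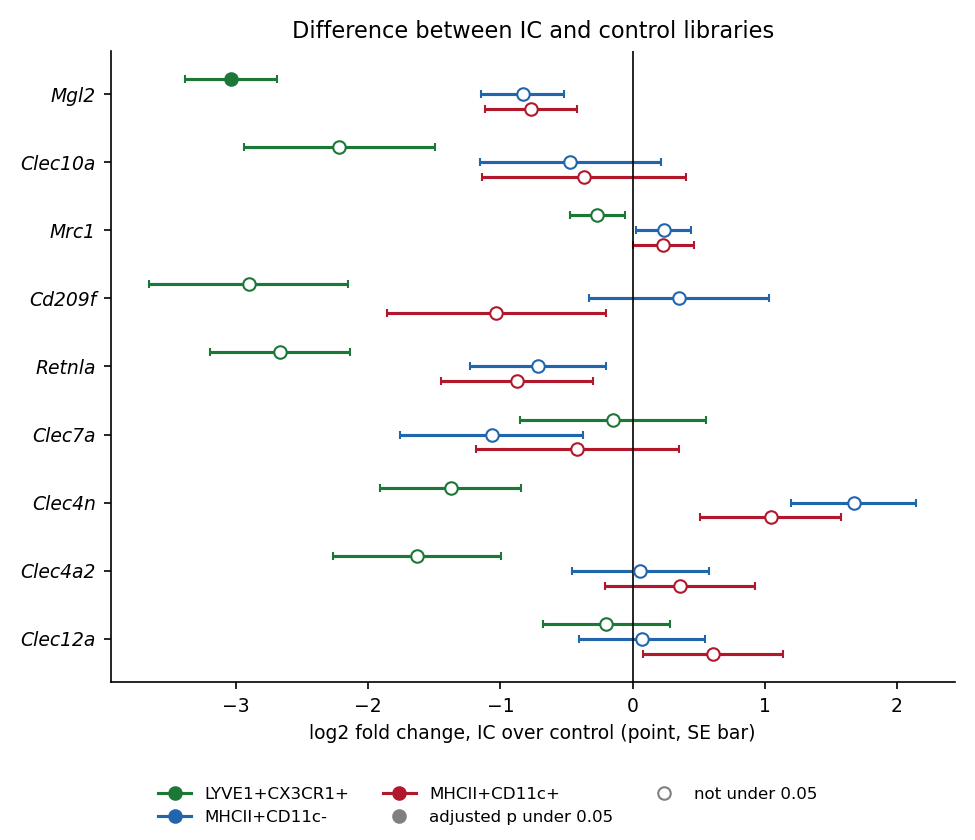
Log2 fold change of IC over control libraries (x axis) for each gene in the 3 subsets, with bars of 1 SE. Filled points had an adjusted p under 0.05. Mgl2 in LYVE1+CX3CR1+ macrophages at -3.04 was the only filled point, and Clec4n was on opposite sides of 0 in LYVE1+CX3CR1+ and MHCII+ macrophages.

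Clec4n differed from its controls without overlap in all 3 subsets, downward in LYVE1+CX3CR1+ and upward in both MHCII+ subsets. It was low in controls, at 8.35, 8.65 and 6.42 CPM in LYVE1+CX3CR1+ libraries, 13.6, 3.89 and 15.4 CPM in MHCII+CD11c- libraries and 5.74, 11.5 and 8.32 CPM in MHCII+CD11c+ libraries. The 3 subsets overlapped in controls. After IC the levels were 2.63, 3.78 and 2.49 CPM in LYVE1+CX3CR1+ libraries, from 6 to 12 counts each, 26.4, 34.4 and 43.5 CPM in MHCII+CD11c- libraries, and 17.8 and 17.6 CPM in MHCII+CD11c+ libraries. The IC libraries lay below all controls in LYVE1+CX3CR1+ macrophages and above all controls in both MHCII+ subsets. None of these changes was called on its own, with log2 fold changes of -1.38 ± 0.53 (adjusted p = 0.222), 1.67 ± 0.47 (adjusted p = 0.126) and 1.05 ± 0.53 (adjusted p = 0.995). In MHCII+CD11c- macrophages the change was called under DESeq2 (adjusted p = 0.0305) and under voom (0.0164). With edgeR 0 members were called on IC in either MHCII+ subset, beside 0.701% of all genes for MHCII+CD11c- macrophages and 0.216% for MHCII+CD11c+ macrophages. An unadjusted p under 0.05 was found for 2 and 1 members. DESeq2 and voom each called 1 member in the former subset and 0 in the latter.

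Side by side after IC, the subsets differed in Clec4n. LYVE1+CX3CR1+ macrophages had 8.53% of the level of MHCII+CD11c- macrophages (log2 difference -3.53 ± 0.52, adjusted p = 0.000288) and 16.8% of that of MHCII+CD11c+ macrophages (-2.56 ± 0.57, adjusted p = 0.00343), the latter not called when only the compared groups were fitted (0.063). In controls the same differences were -0.48 ± 0.48 and -0.14 ± 0.49 and were not called. The tests of the difference in IC response gave -3.05 ± 0.71 (adjusted p = 0.206) and -2.42 ± 0.75 (adjusted p = 0.307). Clec4d, a relative that also signals through the FcR gamma chain, rose in MHCII+CD11c- macrophages from 12.0 ± 4.84 to 51.3 ± 8.55 CPM (n = 3 each, adjusted p = 0.04995), and it is named here after its values were seen. The gene of that chain, Fcer1g, rose there too, from 224 ± 32.7 to 445 ± 48.4 CPM (n = 3 each, adjusted p = 0.00612).

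Clec7a varied widely between control libraries. It was at 60.8, 136 and 69.8 CPM in LYVE1+CX3CR1+ controls, at 54.8, 412 and 123 CPM in MHCII+CD11c- controls and at 218, 651 and 259 CPM in MHCII+CD11c+ controls. In each subset the control library numbered 2 had the highest value. After IC the levels were 80.5, 116 and 42.3 CPM, 130.4, 91.3 and 60.3 CPM, and 311 and 252 CPM, and they overlapped with those of controls in each subset. The log2 fold changes of -0.15 ± 0.70, -1.07 ± 0.69 and -0.42 ± 0.77 were not called, and their 95% intervals were wide (-1.53 to 1.23, -2.43 to 0.29 and -1.92 to 1.09). Without the control libraries numbered 2, a setting chosen after seeing the data, they became 0.37, 0.09 and 0.23, so their sign depended on these libraries. Retnla too was highest in the control library numbered 2 of each subset, and Clec10a, Mgl2, Cd209f and Clec4a2 were lowest in it. Mgl2 and Retnla, alike over the groups, thus went opposite ways in these libraries. With group means removed, their correlation over the 17 libraries was -0.13. Without those libraries LYVE1+CX3CR1+ Retnla had a log2 fold change on IC of -2.13 (adjusted p = 0.0797).

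Across subsets the mean of Clec7a was highest in MHCII+CD11c+ macrophages, but no difference between subsets was called in the reported fit. MHCII+CD11c+ and MHCII+CD11c- controls overlapped (log2 difference 0.93 ± 0.69, adjusted p = 0.508), and after IC the adjusted p was 0.403. Each MHCII+CD11c+ control library was above each LYVE1+CX3CR1+ control library, with a log2 difference for LYVE1+CX3CR1+ over MHCII+CD11c+ of -2.09 ± 0.69 (adjusted p = 0.0772). The MHCII+CD11c- control libraries overlapped with those of LYVE1+CX3CR1+ macrophages. The test was passed under 7 alternatives, including the one without the libraries numbered 2 (adjusted p = 0.0074). After IC the difference was -1.82 ± 0.78 (adjusted p = 0.160) and the groups again did not overlap.

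Clec4a2 was lowest in LYVE1+CX3CR1+ and highest in MHCII+CD11c+ macrophages. Control libraries of LYVE1+CX3CR1+ macrophages had 15.4, 10 and 14.9 CPM, those of MHCII+CD11c- macrophages 60.6, 34.1 and 63.9 CPM, and those of MHCII+CD11c+ macrophages 85.5, 80.2 and 123 CPM. No library of a subset overlapped with the next. The difference between the first and the last was called (log2 difference -2.82 ± 0.53, adjusted p = 0.00231), while those of MHCII+CD11c- macrophages from LYVE1+CX3CR1+ (adjusted p = 0.108) and from MHCII+CD11c+ macrophages (adjusted p = 0.379) were not. The former was called under 5 of 12 alternatives, with adjusted p-values from 0.000144 to 0.0418. After IC the levels were 3.22, 0 and 10.8 CPM in LYVE1+CX3CR1+ libraries, the 0 standing for no read where 3 counts would be 0.944 CPM. They were 44.1, 57.9 and 62.7 CPM in MHCII+CD11c- libraries and 115 and 131 CPM in MHCII+CD11c+ libraries. LYVE1+CX3CR1+ macrophages were then below both (log2 differences -3.64 ± 0.63, adjusted p = 0.00339, and -4.81 ± 0.67, adjusted p = 0.000229). Their own change on IC, -1.63 ± 0.64, was not called (adjusted p = 0.250), was called with surrogate variables (0.0036) and became -2.97 (adjusted p = 0.037) without LYVE1+CX3CR1+ IC replicate 3.

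Clec12a, the other receptor with an inhibitory motif, showed no called difference in any of the 12 comparisons. LYVE1+CX3CR1+ controls had 90.8 ± 6.43 CPM, MHCII+CD11c- controls had 71.9 ± 9.13 CPM and MHCII+CD11c+ controls had 73.9 ± 27.7 CPM (n = 3 each). After IC the same subsets had 86.3, 126 and 24.5 CPM, then 118, 74.2 and 34.1 CPM, then 119.6 and 106 CPM. In LYVE1+CX3CR1+ and in MHCII+CD11c- macrophages the IC libraries scattered on both sides of the controls. The 95% intervals of the log2 fold change on IC were -1.14 to 0.74, -0.87 to 1.01 and -0.44 to 1.65, which leaves changes of about 1 log2 unit within reach.

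Counted over the members, the comparison of LYVE1+CX3CR1+ with MHCII+CD11c- macrophages held 2 of 9 called genes in controls (Mgl2 and Retnla) and 7 of 9 after IC, all lower in LYVE1+CX3CR1+. The background was 1.56% of all genes in controls, with 1.22% lower, and 5.54% after IC, with 4.79% lower. Under voom 4 of the 7 were called, without Cd209f, Clec10a and Mrc1. The call of Clec10a (log2 difference -3.92 ± 0.72, adjusted p = 0.014) was also lost without LYVE1+CX3CR1+ IC replicate 1 (adjusted p = 0.0521). The 5 members called after IC and not in controls were Cd209f, Clec10a, Clec4a2, Clec4n and Mrc1, yet 3 of these, Cd209f, Clec10a and Clec4a2, already lay below the MHCII+CD11c- libraries without overlap in controls, as 10.3% of all genes did, and no interaction test of a member passed. Against MHCII+CD11c+ macrophages, 4 of 9 were called in controls (background 15.2%), with Mgl2, Retnla and Clec4a2 lower (7.4%) and Mrc1 higher (7.83%) in LYVE1+CX3CR1+ macrophages. After IC 4 of 9 were called (background 11.9%), all lower (8.42%), namely Mgl2, Retnla, Clec4a2 and Clec4n. The MHCII+ subsets differed after IC in 2 of 9 (background 4.03%), Cd209f and Mrc1, both lower in MHCII+CD11c+ macrophages (1.75%). The test of a different response to IC called 0 members for LYVE1+CX3CR1+ against MHCII+CD11c- (background 0.0262%), 0 for LYVE1+CX3CR1+ against MHCII+CD11c+ (0.0327%) and 0 between the MHCII+ subsets (0%). In edgeR 4, 4 and 0 members had an unadjusted p under 0.05 in these tests, beside 1152, 1225 and 496 of the 15272 genes. DESeq2 called 2, 1 and 0 members, and its shares over all genes are not given here.

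**Figure D3:**
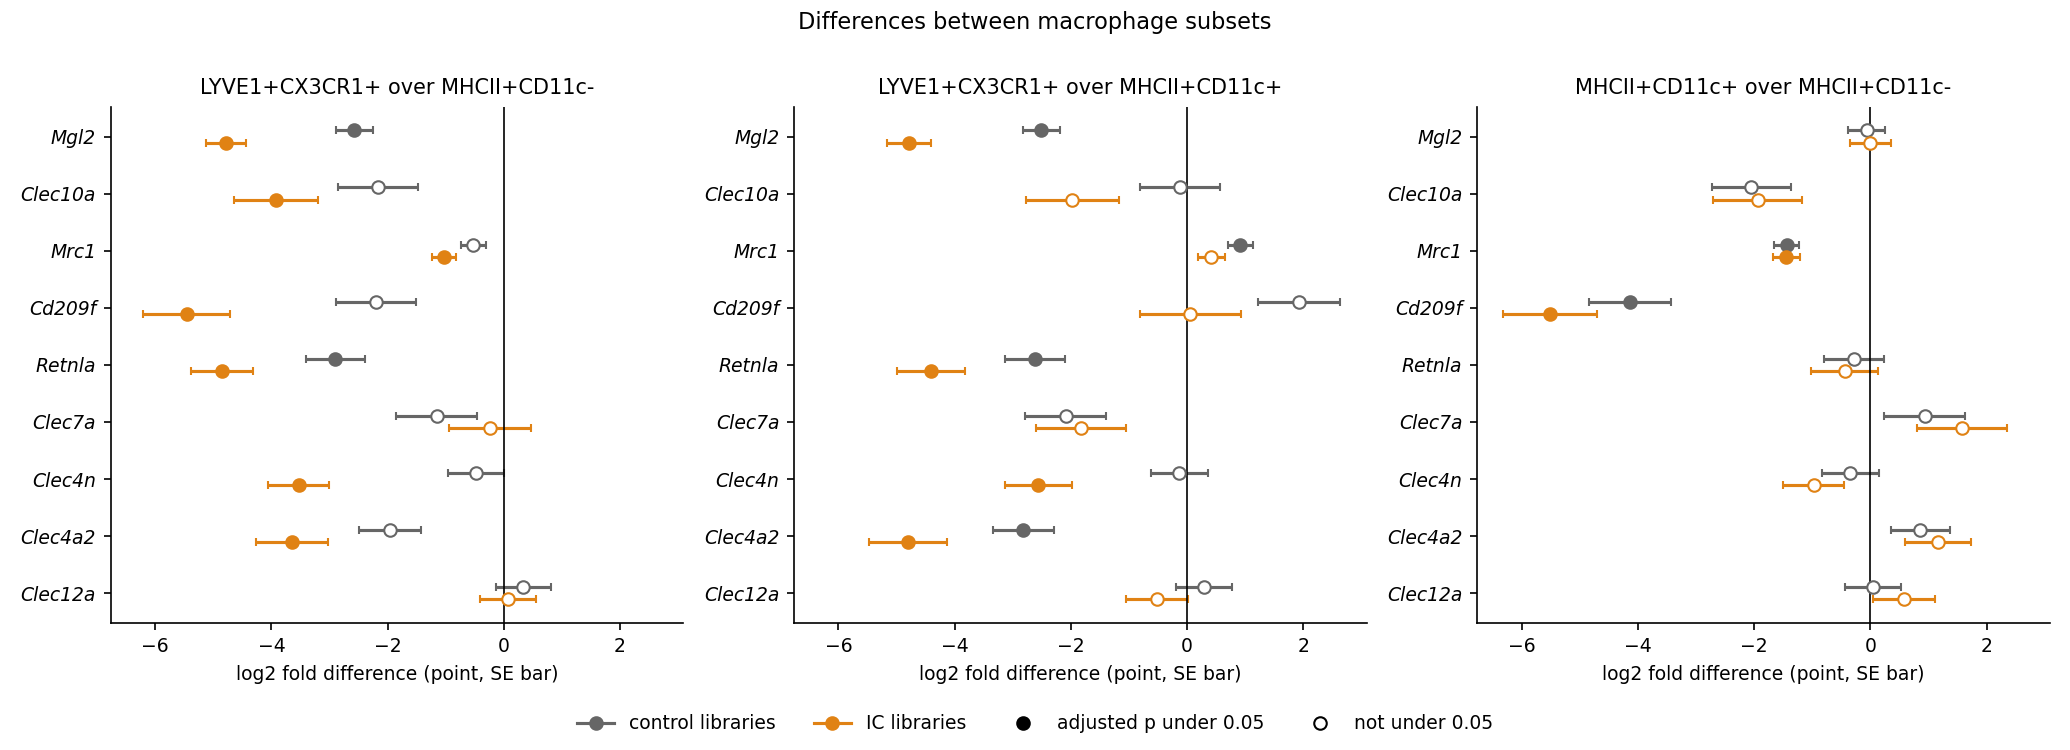
Log2 difference between subsets (x axis) for each gene in control libraries (gray) and IC libraries (orange), with bars of 1 SE. Filled points had an adjusted p under 0.05. For LYVE1+CX3CR1+ over MHCII+CD11c-, 2 gray and 7 orange points are filled, all left of 0, and the points of Clec12a and Clec7a are unfilled in each panel.

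On IC in LYVE1+CX3CR1+ macrophages 9 of 9 members had a fold change below 0, where 40.3% of all genes were above 0. Under some alternatives Clec7a and Clec12a were above 0. In 5 of 9 members the IC libraries were all below all controls, beside 16.7% of genes without overlap in that direction. The median log2 fold change over all genes was -0.14, against -1.63 over the members. In MHCII+CD11c- macrophages 4 of 9 were below 0 and the members' median was 0.06, and in MHCII+CD11c+ macrophages 5 of 9 were below 0 and the median was -0.36. Medians over all genes were -0.03 and 0.01 in these subsets, where 47.8% and 51.1% of all genes were above 0. Without overlap, 1 member was higher in MHCII+CD11c- macrophages, Clec4n, beside 8.72% of genes. In MHCII+CD11c+ macrophages 3 were higher, Mrc1, Clec4n and Clec12a, beside 14.1%, and 2 were lower, Mgl2 and Retnla, beside 9.02%. In these libraries the summed level of 8 neutrophil markers was 84.5 to 466 CPM in controls and 25.7 to 29.7 CPM after IC, where Ly6g, Ngp and Camp were at 0. That of 4 mast cell markers was 0.425 to 3.40 CPM in controls, with Cpa3 and Tpsb2 at 0, and 18.8 to 35.7 CPM after IC, and the part of either in these differences was not tested.

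MHCII genes and dendritic cell markers moved in the same direction as the members in LYVE1+CX3CR1+ libraries, and their part in the members' changes was not tested. As a percentage of the MHCII+CD11c- mean, the LYVE1+CX3CR1+ level of Mgl2 went from 16.8 in controls to 3.64 after IC, that of Retnla from 13.4 to 3.45, that of Cd209f from 21.7 to 2.29 and that of Clec10a from 22.2 to 6.78. The same percentages were 0.632 and 0.542 for H2-Ab1, 0.462 and 0.0314 for H2-Aa, and 1.04 and 0.383 for Cd74. These MHCII genes stood at about 1% or less of the MHCII+CD11c- level in LYVE1+CX3CR1+ libraries of either treatment. The 4 members stood at 13.4% to 22.2% in controls and at 2.29% to 6.78% after IC. Fewer genes detected at equal depth also went with the LYVE1+CX3CR1+ IC libraries, and its part was not tested.

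**Figure D4:**
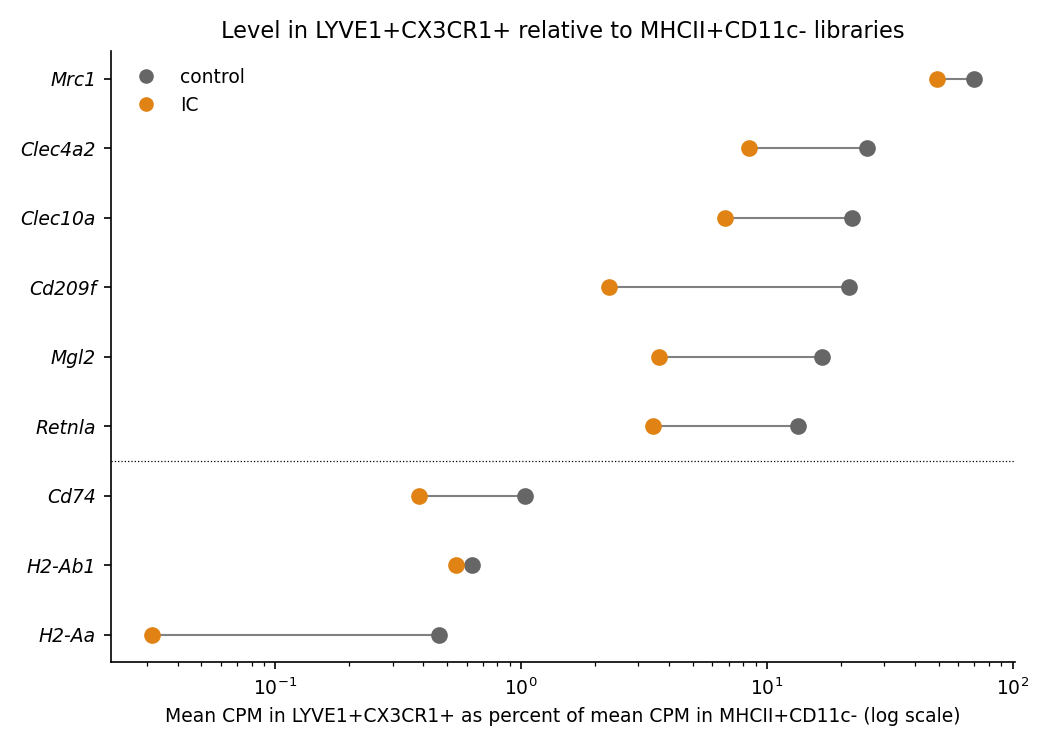
Mean CPM in LYVE1+CX3CR1+ libraries as a percentage of mean CPM in MHCII+CD11c- libraries (log x axis) for 6 members and, under the dotted line, 3 MHCII genes, in controls (gray) and after IC (orange). The orange point lies left of the gray one for each gene shown, and the members shown lie right of the MHCII genes. Of the members not shown, Clec4n went from 71.1% to 8.53% and Clec12a from 126% to 104%, while Clec7a rose from 45.2% to 84.5%. H2-Eb1 is left out because it was at 0 in LYVE1+CX3CR1+ libraries after IC.

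Other C-type lectin receptor genes were counted from a list of 39, of which 29 could be tested. On IC 2 of them were lower in LYVE1+CX3CR1+ macrophages, Clec4a1 and Cd209b, 1 was higher in MHCII+CD11c- macrophages, Clec4d, and 2 were higher in MHCII+CD11c+ macrophages, Cd93 and Thbd. Clec4a1, a neighbor and relative of Clec4a2, went from 45.6 ± 9.17 to 19.1 ± 2.98 CPM (n = 3 each, log2 fold change -1.25 ± 0.30, adjusted p = 0.0422). Cd209b, another relative of DC-SIGN, went from 17.5 ± 5.34 to 0.105 ± 0.182 CPM (n = 3 each, adjusted p = 0.0121), with the IC libraries at or near 0. Between LYVE1+CX3CR1+ and MHCII+CD11c- macrophages 6 of 29 were lower and 0 higher in controls, and 11 were lower and 0 higher after IC. Cd209a, a dendritic cell marker as well, was among them, at 8.21 ± 3.71 and 113 ± 41.2 CPM in the controls of these subsets (n = 3 each, adjusted p = 0.00446). Against MHCII+CD11c+ controls, LYVE1+CX3CR1+ controls had 5 of the 29 higher and 8 lower. Thbd (thrombomodulin) was among the higher, at 41.7 ± 13.8 against 6.15 ± 3.23 CPM (n = 3 each, adjusted p = 2.29e-05).

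Among 17 tested genes of the resistin family and of alternative activation besides the members, 1 was lower on IC in LYVE1+CX3CR1+ macrophages, Egr2, a transcription factor induced by IL-4, from 228 ± 79.2 to 85.5 ± 9.38 CPM (n = 3 each, adjusted p = 0.0093). In MHCII+CD11c- macrophages Ccl24, an eosinophil chemokine, rose from 223 ± 92.6 to 672 ± 231 CPM and Irf4 fell from 118 ± 18.9 to 54.2 ± 14.5 CPM (n = 3 each, adjusted p = 0.0252 and 0.0169). No gene of this list was called on IC in MHCII+CD11c+ macrophages by edgeR. In controls LYVE1+CX3CR1+ and MHCII+CD11c- macrophages had 0 of 17 called between them. With MHCII+CD11c+ controls as the reference, LYVE1+CX3CR1+ controls had 9 genes lower and 3 higher, and MHCII+CD11c- controls had 4 lower and 2 higher. Irf4 was at 303 ± 30.7 CPM in MHCII+CD11c+ and 82.5 ± 6.13 CPM in LYVE1+CX3CR1+ controls (n = 3 each, adjusted p = 3.2e-06), and Cish, a STAT target, at 61.5 ± 8.27 and 2.45 ± 0.796 CPM (n = 3 each, adjusted p = 1.06e-05).

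Of 9 tested genes of the IL-4 and IL-13 receptors and their signaling, 0 were called on IC in any subset. Among controls the receptor chain Il4ra was lower in MHCII+CD11c+ macrophages, at 209.6 ± 39.4 CPM against 358 ± 86.8 CPM in MHCII+CD11c- macrophages (n = 3 each, adjusted p = 0.0189). Tyk2, a kinase of the receptor, was highest in MHCII+CD11c+ controls, at 156 ± 30.3 CPM, against 58.3 ± 8.38 CPM in LYVE1+CX3CR1+ controls (n = 3 each, adjusted p = 3.39e-05). Among 12 genes that signal below activating C-type lectin receptors 1 changed on IC, Fcer1g in MHCII+CD11c- macrophages. In controls MHCII+CD11c+ macrophages had more Malt1 (340.5 ± 41.2 against 35.7 ± 3.83 CPM, adjusted p = 0.00207) and Prkcd (504 ± 13.8 against 231 ± 7.55 CPM, adjusted p = 6.78e-05) than LYVE1+CX3CR1+ macrophages. Of 4 genes that act below inhibitory motifs or DAP12, 0 were called on IC, and LYVE1+CX3CR1+ controls had more Inpp5d and less Ptpn11 than the controls of MHCII+CD11c+ macrophages (adjusted p = 0.000153 and 8.87e-05).

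The genes whose log2 CPM followed a member most closely over the 17 libraries are given by Pearson's r as a description, since libraries of 1 group share their subset and treatment. For Mgl2 they were Acpp (0.962), Adgre4 (0.958) and Cd209a (0.955), and for Retnla Acpp (0.949), H2-Aa (0.940) and Mgl2 (0.938). Clec10a was followed by Foxred2 (0.938), Padi4 (0.935) and Trf (0.919), and Mrc1 by Siglec1 (0.956), Nfxl1 (0.941) and Ap2a2 (0.937). For Cd209f they were Cd209g (0.944), Gm28496 (0.927) and Dnajb1 (0.912). Close to Clec4a2 were Clec4a3 (0.956) and Fcrls (0.951), and the closest genes to Clec4n were Slfn1 (0.889), Clec4a1 (0.868) and Slfn4 (0.866). Clec7a came with Rpl39 (0.910), Flt1 (0.907) and H2-M2 (0.903), and Clec12a with Crcp (0.903), Adgrl1 (0.889) and Tsfm (0.888).

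Per kilobase of exon, the order of the members differed between subsets. In controls Retnla was first in each subset, where LYVE1+CX3CR1+ macrophages had 561 CPM per kilobase, MHCII+CD11c- macrophages 4170 and MHCII+CD11c+ macrophages 3429. Mrc1 was second in LYVE1+CX3CR1+ and MHCII+CD11c- macrophages, at 355 and 509 CPM per kilobase, and Mgl2 in MHCII+CD11c+ macrophages, at 292. After IC Mrc1 led in LYVE1+CX3CR1+ macrophages, at 294 CPM per kilobase against 87.7 for Retnla.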

How the data were processed

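RNA (5 ng) of sorted cells was made into libraries with a stranded low-input kit. According to the submitters' processing notes and the methods, the authors used Trim Galore, FastQC, HISAT2 on mm10 and featureCounts, and tested with DESeq2 and sva. Versions, annotation and strand setting are not given in the sources used here. The deposited values are raw counts per gene symbol, and 1 column that matched no sample was not used.

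Tests used edgeR 4.0.16 under R 4.3.3 (quasi-likelihood F test, robust), with a mean for each of 6 groups on 17 libraries, filterByExpr with a minimum count of 10, TMM scaling and 11 residual degrees of freedom. A gene is called at an adjusted p under 0.05 (Benjamini-Hochberg over the 15272 genes of a comparison). Levels are CPM by TMM library sizes, mean ± SD. Intervals are 1.96 SE. A floor of 3 counts covers counting error only and was 0.419 to 1.24 CPM. Within groups, pairs of libraries differed by a chi-square of at least 6.77 per degree of freedom, so none repeats another. Of the symbols, 97.4% matched GENCODE M21. The fit was tested on simulated data. Members, marker lists and gene lists were chosen with earlier results of these data known. Named genes are all members, for each list up to 4 called genes with the smallest p over the IC and over the control comparisons, and the 3 most alike genes per member, of which 1 is not reported here. Alternatives used limma 3.58.1 (voom), DESeq2 1.42.0 and sva 3.50.0 with 2 surrogate variables.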

Additional observations from a re-analysis of the deposited data

Results flagged for a closer look

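Clec4n moved in opposite directions on IC. Each LYVE1+CX3CR1+ IC library lay below each of its controls, and each IC library of MHCII+CD11c- and of MHCII+CD11c+ macrophages lay above each of its controls. The difference between the log2 fold changes was -3.05 ± 0.71 (SE) for LYVE1+CX3CR1+ against MHCII+CD11c- macrophages (edgeR quasi-likelihood test, adjusted p = 0.206) and -2.42 ± 0.75 against MHCII+CD11c+ macrophages (adjusted p = 0.307). Counts in the LYVE1+CX3CR1+ IC libraries were between 6 and 12. The first difference passed the threshold under DESeq2 (adjusted p = 0.0282), and adjusted p-values over all alternatives ran up to 0.616.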

How the results depend on the processing

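The 9 genes gave 66 results that were followed over 12 alternatives and over 17 libraries left out in turn. Of 22 called results 13 held throughout, 9 were lost at least once and 0 changed direction.

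The number of members called moved as follows. The share of all genes called under each alternative is not given here, so these moves are not read as results about the members. For IC against control in LYVE1+CX3CR1+ macrophages (1) it was 2 with a minimum count of 30, 0 under voom, 3 each under DESeq2, with surrogate variables and with only the compared groups, and 1 to 2 with a library left out. In MHCII+CD11c- macrophages (0) it was 1 under voom and under DESeq2. For LYVE1+CX3CR1+ against MHCII+CD11c- controls (2) it was 5 under voom, 4 each under DESeq2, with surrogate variables, with only the compared groups and with a replicate block within treatment, and 1 to 3 with a library left out. Between the MHCII+ subsets it was 4 with that block and under voom in controls (2), and after IC (2) it was 4 with that block, under voom, with surrogate variables and with only the compared groups, and 1 to 2 with a library left out. For LYVE1+CX3CR1+ against MHCII+CD11c- macrophages after IC (7) it was 4 under voom. The tests of a different response (0) gave 2 under DESeq2 and 1 with surrogate variables against MHCII+CD11c-, and against MHCII+CD11c+ 1 with a replicate block, 2 with the block within treatment, 1 under DESeq2 and 1 with surrogate variables. For LYVE1+CX3CR1+ against MHCII+CD11c+ macrophages it was 6 in controls (4) with a replicate block, with the block within treatment, with surrogate variables and with only the compared groups, Clec7a and Cd209f being added, and after IC (4) it was 6 with the block within treatment, Clec10a and Clec7a being added. The causes were not tested.

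Changes of sign on IC were found for 10 results that were not called. In LYVE1+CX3CR1+ macrophages Clec7a became 0.21 under voom, 0.15 with surrogate variables and 0.37 without the control libraries numbered 2 (-0.47 to 0.29 with a library left out), and Clec12a became 0.15 with surrogate variables (-0.65 to 0.27). In MHCII+CD11c- macrophages, without the libraries numbered 2, Mrc1 became -0.0057 (-0.006 to 0.38), Clec7a 0.0898 (-1.498 to 0.0877), Clec4a2 -0.18 (-0.18 to 0.21) and Cd209f -0.0597 (-0.34 to 0.68), and Clec12a became -0.036 with a replicate block (-0.40 to 0.42). In MHCII+CD11c+ macrophages Clec10a became 0.16 with a replicate block and 0.13 with surrogate variables (-0.99 to 0.0502), Clec7a 0.23 without the libraries numbered 2 (-0.69 to 0.24) and Cd209f 0.075 with surrogate variables.

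The labels do not say whether libraries of equal number belong together. Among group pairs with 3 shared numbers none had every correlation of deviations over 0.1, the threshold set here. The closest were the MHCII+ controls, with 0.0796 to 0.286 for equal and -0.15 to 0.0511 for unequal numbers. There every pair of equal number was above every other pair. The reported fit has no term for the number, and a shared origin of such libraries was not tested. The setting without the libraries numbered 2 was chosen after seeing the data. Depth limits Clec4n and Clec4a2 in LYVE1+CX3CR1+ IC libraries, where they had at most 12 and 26 counts.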
